A study of Mus musculus with 20 samples.

Results

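The 37 genes described here encode the pore-forming and auxiliary subunits of voltage-gated calcium and sodium channels. They were taken by symbol from the RefSeq annotation of the mouse assembly mm10, out of 21631 protein-coding genes on chromosomes 1 to 19 and X, and fell into 26 calcium channel genes and 11 sodium channel genes. The chromatin around them was profiled by CUT&RUN, in which an antibody directs a nuclease to cut out the DNA it is bound to. Nuclei came from whole brain of 8-week-old mice and had been sorted by flow cytometry into excitatory and inhibitory neurons. For each of 5 antibodies there were 2 libraries labelled excitatory and 2 labelled inhibitory, 20 libraries in all. All of them carried the same genotype label, Sun1 f/f with Emx1Cre (+), a Cre recombinase driven by Emx1, which is active in the excitatory lineage of the forebrain, together with the Sun1 f/f allele, and no treatment was labelled. The labels do not say whether the replicates came from separate animals, so each p-value rests on the spread among the deposited libraries, which may be technical.

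Calcium channels are built around an alpha1 subunit that forms the pore, with alpha2delta and beta subunits that carry it to the membrane and tune its gating. Most gamma subunits expressed in brain are better known as transmembrane AMPA receptor regulatory proteins (TARPs), which escort glutamate receptors to the synapse. Sodium channel alpha subunits carry the rising phase of the action potential, and their beta subunits adjust gating and anchor the channel. Of the marks profiled, H3K4me3 lies at active gene starts, H3K4me1 at enhancers and around starts, H3K27ac at active enhancers and starts, and H3K27me3 over genes repressed by Polycomb. EGR1 is a zinc finger transcription factor induced by neuronal activity.

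The value used throughout is the percent of a gene's window that is covered by the authors' peaks in a library. The window was the gene body with 5 kb on either side for H3K4me1, H3K27ac and H3K27me3, while H3K4me3 and EGR1 were read within 2 kb of the gene's 2 ends. Coverage measures how broad the called signal is, not how high. Differences are given as excitatory minus inhibitory in percentage points after quantile normalization over the 4 libraries of an antibody, with the standard error (SE) from limma, while the levels beside them are not normalized. A difference was called at a Benjamini-Hochberg adjusted p below 0.05 over all genes tested for that antibody. In a pool of sorted nuclei, a mark present in more of the nuclei and a mark broader in each nucleus cannot be told apart.

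The libraries held between 49899 and 321846 peaks, and their depth is unknown because the lists contain no read counts. Markers of neuron types did not follow the labels throughout. For H3K27ac the 8 inhibitory neuron markers summed to 41.8 and 46.4% in the libraries labelled excitatory, against 1.19 and 0.961% in the libraries labelled inhibitory, and Slc32a1, the vesicular GABA transporter, was listed at 0 in both libraries labelled inhibitory. The 8 excitatory forebrain markers summed to 49.0 and 73.4% for H3K27ac in the libraries labelled excitatory and 44.6 and 56.1% in those labelled inhibitory, with a positive difference in 6 of 8. Slc17a7, the vesicular glutamate transporter of forebrain excitatory neurons, was one of the other 2, with 7.89 and 7.26% in the libraries labelled excitatory and 14.0 and 14.4% in those labelled inhibitory. The differences of the excitatory markers were positive in 7 of 8 for H3K4me1 and in 3 of 7 tested for H3K4me3, and those of the inhibitory markers in 4 of 8 and 3 of 8. For H3K27me3 the median difference was -0.49 points over the excitatory markers and 0.30 points over the inhibitory ones. Markers of cerebellar granule neurons, which are excitatory, summed to 44.1 and 104% for H3K4me3 in the libraries labelled excitatory and 174 and 192% in those labelled inhibitory. For EGR1 the excitatory forebrain markers summed to 96.4 and 92.5% in the libraries labelled excitatory, against 18.2 and 35.1% in those labelled inhibitory, and the inhibitory markers to 7.95 and 5.62%, against 32.6 and 41.4%. The granule markers summed to 40.9 and 51.9% for EGR1 in the libraries labelled excitatory and 49.98 and 75.7% in those labelled inhibitory. The group names below are therefore those of the labels, every direction is one between labelled libraries, and the part that the composition of the sorted nuclei plays in each result was not tested.

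**Figure D1:**
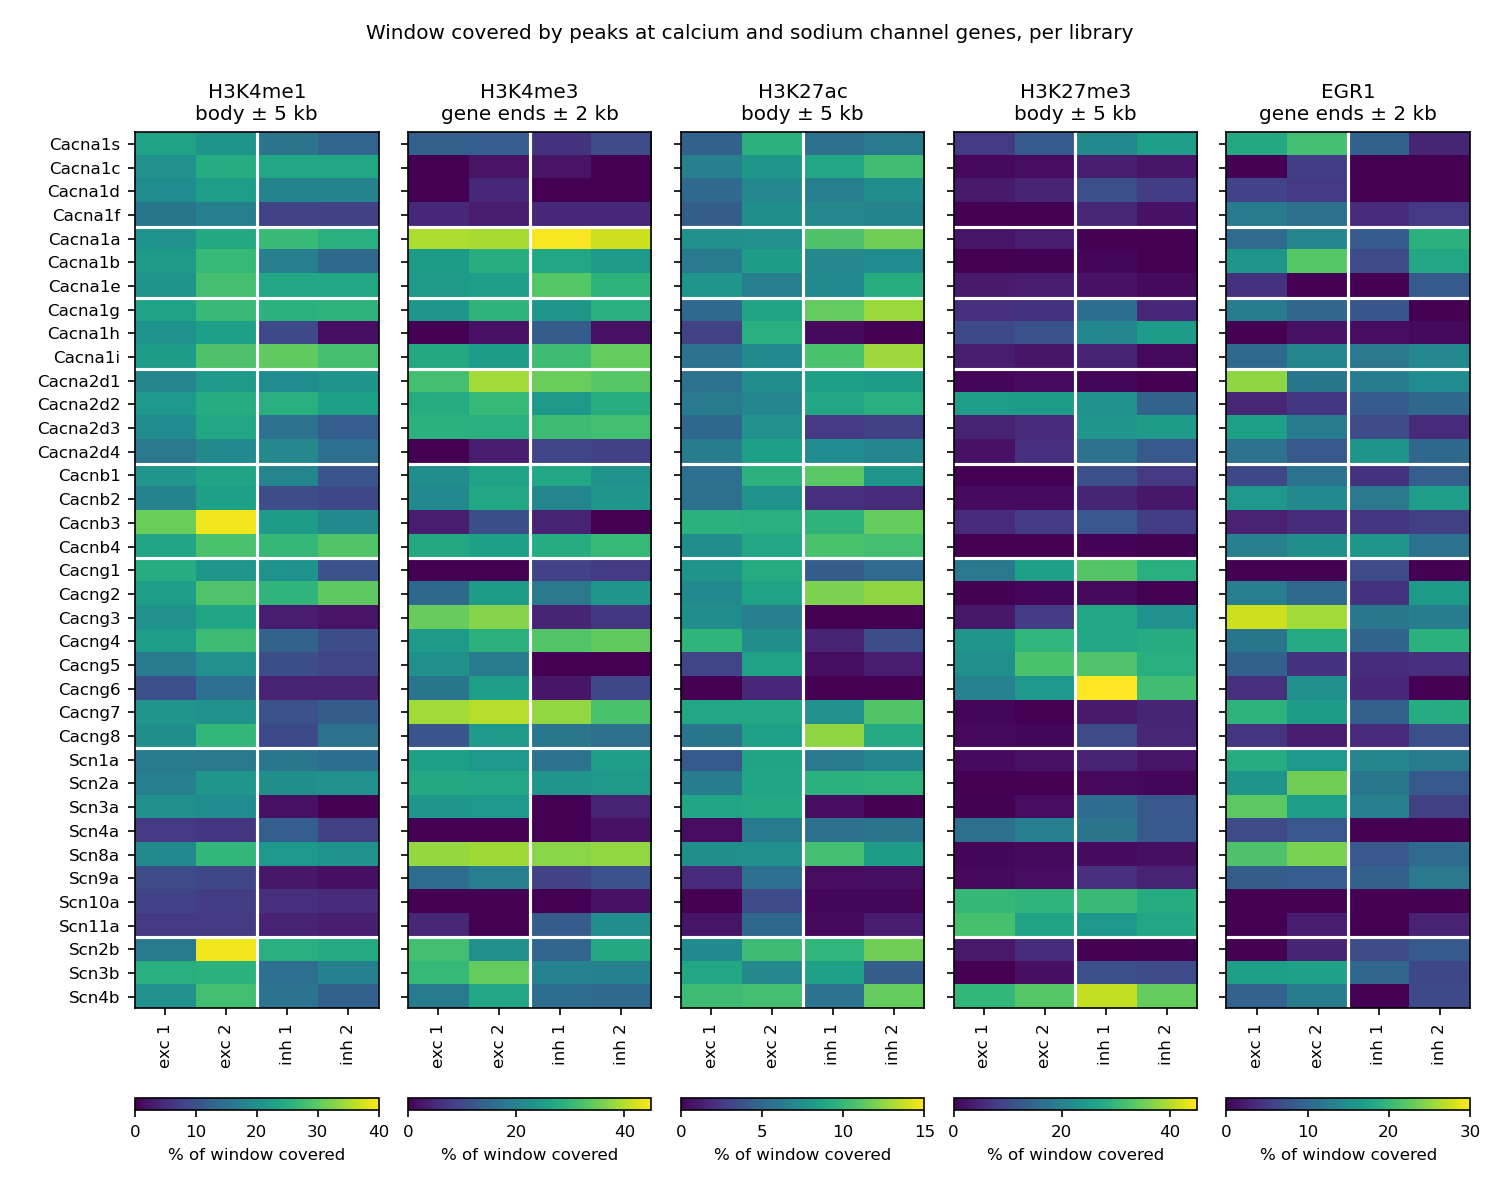
Percent of the window covered by peaks for the 37 channel genes (rows, grouped by subunit class with white lines, from alpha1 subunits at the top to sodium channel beta subunits at the bottom) in each of the 20 libraries (columns, labelled excitatory left of labelled inhibitory); each antibody has its own colour scale. Cacng3 and Scn3a are brighter for H3K4me1 and H3K4me3 in the libraries labelled excitatory than in those labelled inhibitory, where they are dark, while Scn10a and Scn11a are green for H3K27me3 in all 4 libraries.

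Cacng3 was the member with the largest H3K4me3 difference at its gene ends. It encodes TARP gamma-3, an AMPA receptor partner of the forebrain. Its H3K4me3 coverage was 34.6 and 36.8% in the libraries labelled excitatory, against 4.6 and 7.32% in those labelled inhibitory, so both libraries of one label lay far above both of the other. The difference was 29.3 ± 2.21 percentage points (SE, n = 2 libraries each, limma adjusted p = 0.0125). The gene has a single RefSeq start and no other gene within its windows. Within 2 kb of that start, coverage was 61.9 and 67.2% in the libraries labelled excitatory, against 9.20 and 14.6% in those labelled inhibitory. In the libraries labelled excitatory the peaks ran across the start and on into the gene, and in those labelled inhibitory they were short and missed the start itself. The broader coverage was not a higher peak in every comparison. The authors' fold enrichment of the strongest peak there was 2.54 and 2.77 in the libraries labelled excitatory and 1.95 and 4.51 in those labelled inhibitory. This start carried an H3K4me3 peak in both libraries labelled excitatory and in neither labelled inhibitory, which held for 2 of the 40 RefSeq starts of members and for 1.28% of all 21045 RefSeq starts. The other such start was that of Cacng5, and the reverse pattern was seen at 1 member start, that of Scn11a, and at 0.988% of all starts. The sequences around the starts of Cacng5 and Scn11a are shown because of these opposite patterns. They are from RefSeq on mm10 and run from 250 bases before to 50 bases after the start.
Cacng5, chr11:107915006-107915305, minus strand: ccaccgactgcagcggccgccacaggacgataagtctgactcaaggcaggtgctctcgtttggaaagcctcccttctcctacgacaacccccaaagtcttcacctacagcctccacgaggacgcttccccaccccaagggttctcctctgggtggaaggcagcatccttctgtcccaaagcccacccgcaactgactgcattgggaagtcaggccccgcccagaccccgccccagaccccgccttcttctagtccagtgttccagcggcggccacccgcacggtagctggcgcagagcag
Scn11a, chr9:119825407-119825706, minus strand: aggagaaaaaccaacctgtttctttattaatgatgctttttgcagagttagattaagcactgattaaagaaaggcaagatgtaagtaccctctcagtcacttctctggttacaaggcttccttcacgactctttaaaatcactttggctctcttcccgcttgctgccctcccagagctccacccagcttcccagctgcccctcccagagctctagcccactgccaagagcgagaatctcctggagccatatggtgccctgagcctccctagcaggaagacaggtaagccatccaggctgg

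Across the 34 members with H3K4me3 in at least 2 libraries, 4 were called, all of them higher in the libraries labelled excitatory. Over all 15685 genes tested, 3.02% were called and 1.80% were called higher. Apart from Cacng3 the called members were Scn3a, Cacng5 and Scn3b. The remaining 3 members, Cacna1d, Scn4a and Scn10a, had a peak at the gene ends in no more than 1 library and were not tested.

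Scn3a encodes a sodium channel alpha subunit that is abundant in the embryonic and newborn brain. Its ends were covered by H3K4me3 to 23.8 and 24.0% in the libraries labelled excitatory, against 0 and 4.41% in those labelled inhibitory. The groups did not overlap, and the difference was 20.9 ± 2.63 points (limma adjusted p = 0.0182). Cacng5, a type II TARP, had 22.5 and 18.5% in the libraries labelled excitatory and was listed at 0 in both labelled inhibitory. Its difference was 19.9 ± 2.69 points (limma adjusted p = 0.0212). Scn3b, an auxiliary sodium channel beta subunit, had 30.1 and 34.4% in the libraries labelled excitatory, against 19.9 and 19.8% in those labelled inhibitory. Here the mark was present in all 4 libraries and broader in those labelled excitatory, by 12.1 ± 2.10 points (limma adjusted p = 0.0391), although the authors' fold enrichment of the strongest peak was 3.92 and 3.47 in the libraries labelled excitatory and 5.62 and 7.27 in those labelled inhibitory. The Scn3b window also reaches the neighbouring gene Gramd1b. The calls rested on few libraries: 0 members were called when the second excitatory or either inhibitory library was left out, with limma adjusted p for Cacng3 of 0.187, 0.465 and 0.462, and 6 when the first excitatory library was left out, the 4 above with Cacng6 higher and Scn11a lower, where 4.76% of all genes were called. The differences of the 4 called members kept their sign in all of these fits. In the same test 3 of 7 cerebellar granule markers, Gabra6, Zic1 and Barhl1, and 1 of 7 excitatory forebrain markers, Tbr1, were called lower in the libraries labelled excitatory, and their part in the members' differences was not tested.

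**Figure D2:**
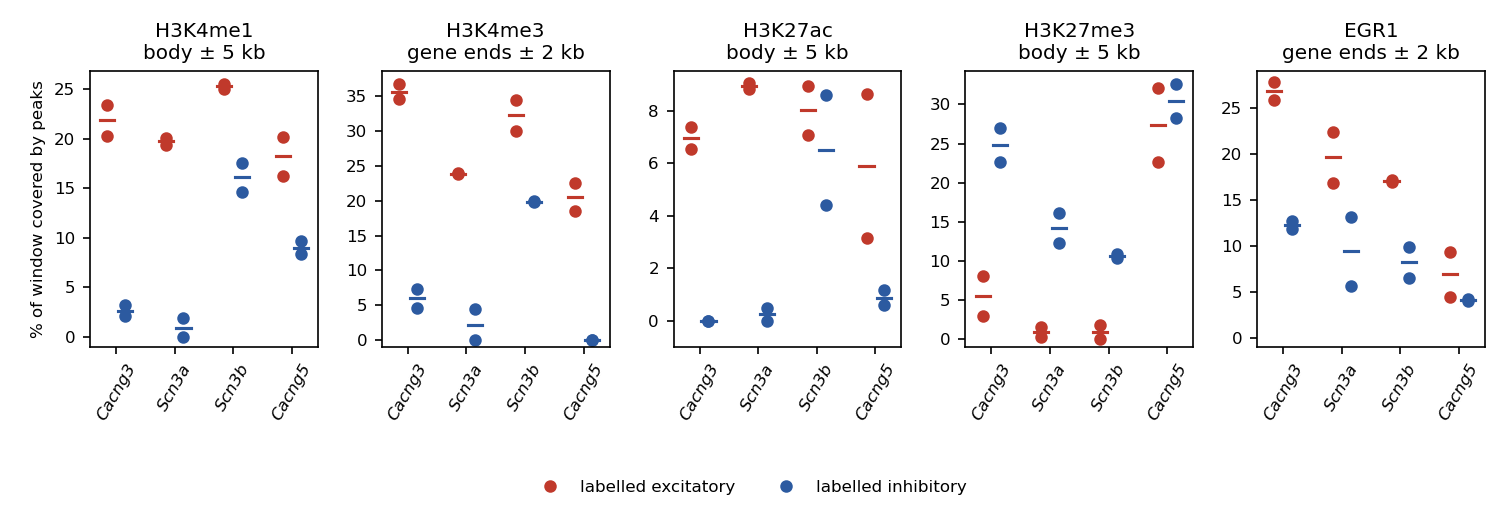
Percent of the window covered by peaks for the 4 genes called for H3K4me3, in each library (points) with the mean of the 2 libraries (bar), for the 5 antibodies; red points are libraries labelled excitatory and blue points, to their right, libraries labelled inhibitory. Cacng3 and Scn3a are higher in red for H3K4me1, H3K4me3, H3K27ac and EGR1 and lower in red for H3K27me3, where Cacng3 sits at 2.94 and 8.03% in red against 27 and 22.7% in blue.

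At most other members H3K4me3 differed by a few points. Scn8a and Cacna1a, the alpha subunits of the sodium channel of the axon initial segment and of the presynaptic P/Q-type calcium channel, were among the most broadly covered. Scn8a had 37.9 and 38.5% in the libraries labelled excitatory and 36.9 and 37.7% in those labelled inhibitory, with a difference of 1.48 ± 2.37 points. The end away from its start had 34.8 and 40.1% in the libraries labelled excitatory and 29.2 and 35.5% in those labelled inhibitory. Around its RefSeq starts Scn8a had 30.3 and 30.6% against 37.1 and 45.5% (-11.8 ± 3.84 points, limma adjusted p = 0.157). Cacna1a had 39.5 and 39.1% in the libraries labelled excitatory and 44.6 and 41.6% in those labelled inhibitory, and its difference of -2.71 ± 2.91 points did not pass the test. Cacng7, a TARP of cerebellum and forebrain, had 38.7 and 40.0% in the libraries labelled excitatory and 37.8 and 32.1% in those labelled inhibitory. These genes carried the mark in every library, and none of the 3 passed the test.

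Cacna1s and Scn4a encode the pores of skeletal muscle, and Scn9a, Scn10a and Scn11a those of peripheral pain-sensing neurons, and their H3K4me3 differed from gene to gene. Scn9a had the mark in every library, with 16.0 and 19.2% in the libraries labelled excitatory and 9.26 and 11.3% in those labelled inhibitory (6.79 ± 2.13 points, limma adjusted p = 0.159). Cacna1s had 13.9 and 13.5% in the libraries labelled excitatory and 6.52 and 10.2% in those labelled inhibitory. Scn4a and Scn10a had no H3K4me3 peak at their ends in 3 of 4 libraries and 2.25% in the second library labelled inhibitory. Scn11a had 4.86 and 0% in the libraries labelled excitatory, against 13.1 and 22.1% in those labelled inhibitory, a difference of -15.0 ± 3.45 points that missed the threshold (limma adjusted p = 0.0778). In the window at the start alone, Scn11a had 9.37 and 0% in the libraries labelled excitatory and 26.2 and 44.2% in those labelled inhibitory, and passed it (-29.8 ± 6.30 points, limma adjusted p = 0.0471). Cacng1, a gamma subunit of skeletal muscle, was listed at 0 in both libraries labelled excitatory and had 9.06 and 7.81% in those labelled inhibitory (-8.73 ± 2.0 points, limma adjusted p = 0.0776). Cacna2d4, an alpha2delta subunit of the retina, had 0 and 3.57% in the libraries labelled excitatory and 9.44 and 8.94% in those labelled inhibitory (-8.65 ± 2.0 points, limma adjusted p = 0.0787).

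In 3 large alpha1 genes H3K4me3 peaks lay at RefSeq starts inside the gene, outside the gene-end windows. Cacna1c and Cacna1d, the L-type pores of brain and heart, had at most 2.3 and 5.22% at their ends in any library. Around an internal RefSeq start, Cacna1c had 49.4 and 64.9% in the libraries labelled excitatory and 68.6 and 73.5% in those labelled inhibitory. Around its own internal start, Cacna1d had 51.3 and 56.4% in the libraries labelled excitatory and 47.6 and 55.6% in those labelled inhibitory. Both genes thus carried the mark in every library, at starts that the gene-end window misses. Cacna1e, the R-type pore, had H3K4me3 at its gene end and at its single RefSeq start inside the gene, and the groups ran in opposite directions at these places. At the gene ends it had 24.1 and 25.2% in the libraries labelled excitatory, against 33.1 and 29.1% in those labelled inhibitory (-6.76 ± 2.47 points, limma adjusted p = 0.219). At the internal start it had 77.3 and 69.5% in the libraries labelled excitatory, against 30.0 and 27.2% in those labelled inhibitory. With the window set at RefSeq starts, for which 4.65% of 11886 genes were called, this difference was 45.3 ± 4.80 points (limma adjusted p = 0.00733). The broader coverage was not a higher peak: the authors' fold enrichment there was 3.14 and 2.57 in the libraries labelled excitatory and 7.10 and 9.49 in those labelled inhibitory.

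**Figure D3:**
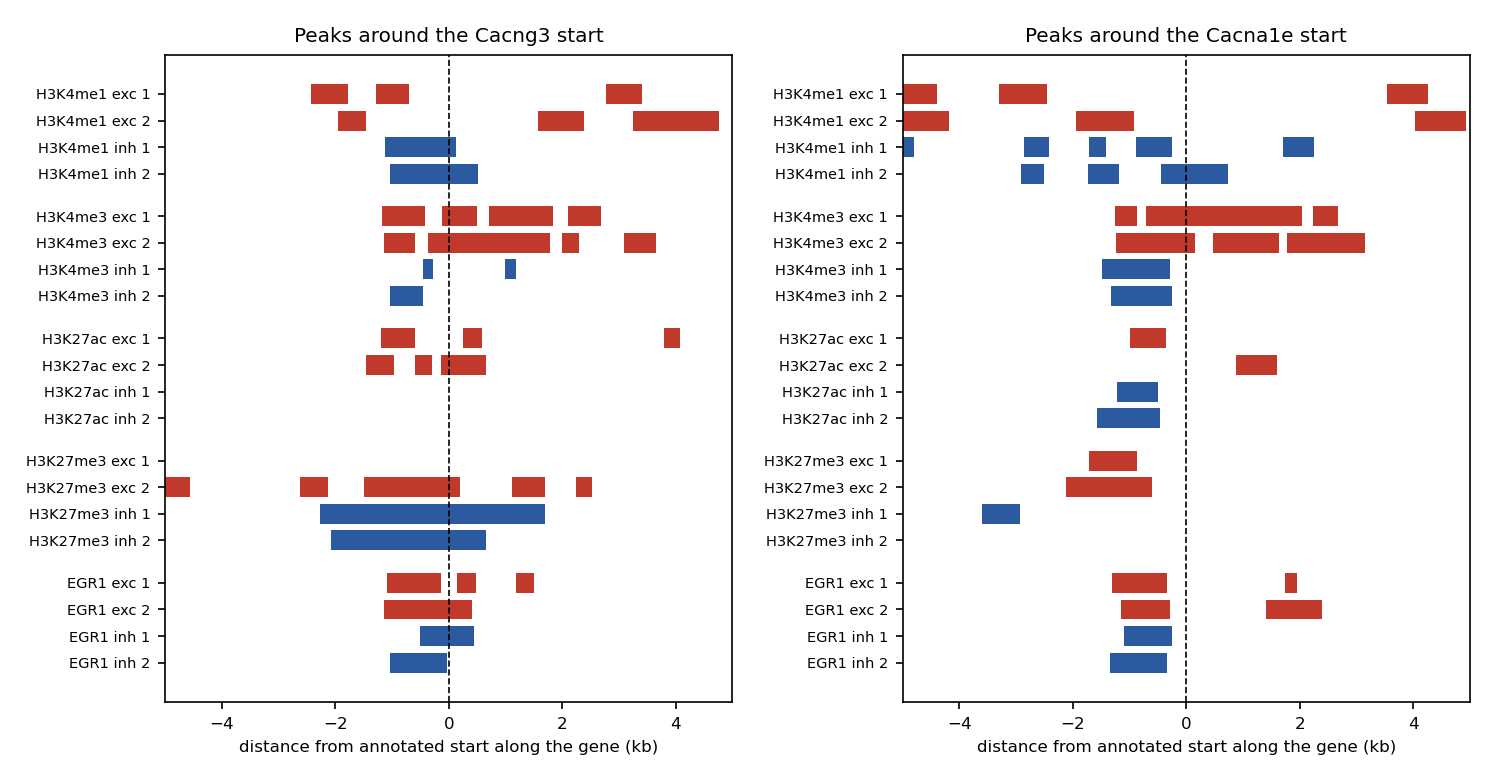
Peaks within 5 kb of the RefSeq start of Cacng3 (left) and of Cacna1e (right), with one row per library, red for libraries labelled excitatory and blue, beneath them, for those labelled inhibitory; the horizontal axis is the distance from the start in kb, positive in the direction of transcription. H3K4me3 peaks cover 61.9 and 67.2% of the 2 kb on either side of the Cacng3 start in red and 9.20 and 14.6% in blue, and 77.3 and 69.5% against 30.0 and 27.2% at Cacna1e.

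For H3K4me1 all 37 members were tested and 2 were called, Cacng3 and Scn3a, both higher in the libraries labelled excitatory. Of all 18017 genes tested 4.06% were called, 2.53% as higher, so the members' share of 5.41% was close to the background. Cacng3 had 20.3 and 23.4% of its body window covered in the libraries labelled excitatory, against 3.24 and 2.07% in those labelled inhibitory. The difference was 16.9 ± 2.14 points (limma adjusted p = 0.0401). Scn3a had 20.1 and 19.4% in the libraries labelled excitatory, against 1.86 and 0% in those labelled inhibitory, a difference of 17.3 ± 2.31 points (limma adjusted p = 0.0401). In both genes the mark was spread over many separate regions rather than a single one. Of the merged peak regions in Cacng3, 10 were found in both libraries labelled excitatory and in neither labelled inhibitory, and 0 the other way round, and in Scn3a the counts were 12 and 0. In both genes 0 regions were found in all 4 libraries, and 30 in Cacng3 and 25 in Scn3a had other combinations of libraries. Of all merged H3K4me1 regions in the genome, 13.1% were found with the excitatory label alone and 2.84% with the inhibitory label alone. With the first excitatory library left out the adjusted p of both genes was 0.0570, and 0 members were called. With either inhibitory library left out it lay between 0.247 and 0.254, again with 0 members called. With the gene-end window the 2 calls were instead Scn11a and Cacna1f, with 219 of 16767 genes called. There the differences were 8.58 points for Cacng3 and 3.99 points for Scn3a (limma adjusted p = 0.615 and 0.538). Within 2 kb of its start, Cacng3 was lower in the libraries labelled excitatory, with 19.9 and 23.0% against 31.4 and 38.8%. Among the marker genes, Gad1 of inhibitory neurons was called higher over its body window in the libraries labelled excitatory and Gabra6 of cerebellar granule neurons lower, and their part in these results was not tested.

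H3K4me1 over the gene bodies was more often broader in the libraries labelled excitatory than in those labelled inhibitory. Before normalization, H3K4me1 peaks covered 218 and 257 Mb in the libraries labelled excitatory and 188 and 163 Mb in those labelled inhibitory. The share of these peaks with a q-value below 0.05 was 0.00870 and 0.219%, against 1.43 and 9.61%. The part of these differences between libraries in the H3K4me1 results was not tested. Both libraries labelled excitatory lay above both labelled inhibitory in 23 of 37 members, against 39.3% of all genes tested, and below both in 2 members, against 15.3%. The median normalized difference was 4.01 points over members and -0.34 points over all genes tested. The difference was positive in 22 of 37 members, among them 7 of 8 gamma and 1 of 4 alpha2delta genes, and in 47.3% of all genes tested, and no difference between the classes was tested. The 3 members next in order were Cacna1h, Cacng4 and Cacnb3. Cacna1h, a T-type pore, had 20.6 and 22.6% in the libraries labelled excitatory and 8.83 and 1.51% in those labelled inhibitory (14.2 ± 2.85 points, limma adjusted p = 0.0557). Cacng4, a TARP, had 22.4 and 27.3% in the libraries labelled excitatory and 12.8 and 9.46% in those labelled inhibitory (11.7 ± 2.40 points, limma adjusted p = 0.0579). Cacnb3, a beta subunit gene whose windows also reach Ddx23, had the broadest coverage of the beta class, 31.0 and 39.2% in the libraries labelled excitatory and 22.0 and 19% in those labelled inhibitory (13.8 ± 3.10 points, limma adjusted p = 0.0655). None of these passed the test.

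Among members with a negative normalized H3K4me1 difference, Scn4a, Cacna1a and Scn2a came first in order of p. Scn4a had 6.65 and 6.27% in the libraries labelled excitatory and 12.0 and 7.61% in those labelled inhibitory (-6.51 ± 1.80 points, limma adjusted p = 0.0958). Cacna1a had 20.6 and 24.3% in the libraries labelled excitatory and 27.1 and 25% in those labelled inhibitory (-4.82 ± 2.72 points, limma adjusted p = 0.319). The groups did not overlap in either gene, but neither difference passed the test. The main sodium channel pores of adult brain were nearly level: Scn1a had 16.1 and 16.1% in the libraries labelled excitatory and 15.6 and 14.4% in those labelled inhibitory, and Scn2a, with overlapping groups, had 17.4 and 21.1% in the libraries labelled excitatory and 19.8 and 20.2% in those labelled inhibitory.

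H3K27ac gave 0 calls among the 36 members tested and 0 among all 16654 genes (0% called, limma), while 8 members and 18.2% of all genes had an unadjusted p below 0.05. Scn3a and Cacng3 again came first in order of p. Scn3a had 8.82 and 9.04% of its window covered in the libraries labelled excitatory, against 0.485 and 0% in those labelled inhibitory (8.56 ± 1.5 points, limma adjusted p = 0.144). Cacng3 had 7.37 and 6.52% in the libraries labelled excitatory and was listed at 0 in both labelled inhibitory (6.25 ± 1.62 points, limma adjusted p = 0.168). With the first or the second excitatory library left out, Cacng3 passed the test (limma adjusted p = 0.0257 and 0.0266). It was 1 of 36 members called in each of these fits, which called 5.55 and 5.40% of all genes tested, so the members' share was below the background. Cacnb2, a beta subunit gene, had 5.55 and 7.62% in the libraries labelled excitatory and 2.08 and 1.82% in those labelled inhibitory (3.78 ± 1.21 points, limma adjusted p = 0.208).

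The 3 T-type pore genes did not share an order between the labels for H3K27ac. Cacna1h had 3.09 and 9.38% in the libraries labelled excitatory, against 0.405 and 0% in those labelled inhibitory. Cacna1g had 5.14 and 8.75% in the libraries labelled excitatory and 11.4 and 12.7% in those labelled inhibitory (-3.83 ± 1.68 points, limma adjusted p = 0.310). Cacna1i had 5.73 and 7.13% in the libraries labelled excitatory and 10.7 and 12.8% in those labelled inhibitory (-4.48 ± 1.64 points, limma adjusted p = 0.243). Cacna1h was thus above in both libraries labelled excitatory and the other T-type genes below, with none called. Cacng2, which encodes the TARP stargazin, had 7.10 and 8.69% in the libraries labelled excitatory and 12.0 and 12.5% in those labelled inhibitory, opposite in order to its relative Cacng3 and also not called (limma adjusted p = 0.409). The share of H3K27ac peaks with a q-value below 0.05 differed between the labels, 2.57 and 4.94% in the libraries labelled excitatory and 31.8 and 35.1% in those labelled inhibitory, and its part in these results was not tested.

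**Figure D4:**
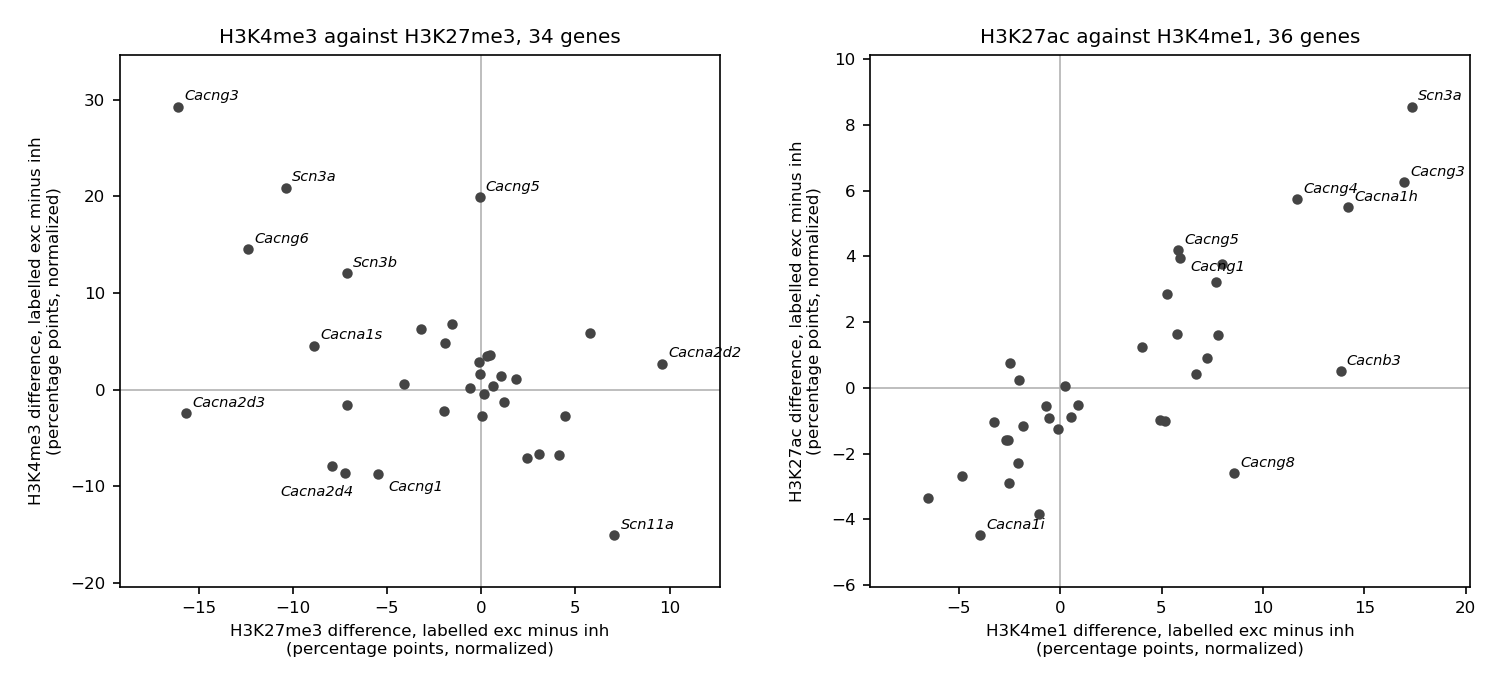
Normalized differences (labelled excitatory minus labelled inhibitory, percentage points of the window) of channel genes, H3K4me3 at gene ends against H3K27me3 over gene bodies for 34 genes (left) and H3K27ac against H3K4me1 over gene bodies for 36 genes (right); each point is a gene. Cacng3 and Scn3a lie at the upper left on the left and at the upper right on the right, and Cacng5 has an H3K4me3 difference of 19.9 points with an H3K27me3 difference of -0.09.

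H3K27me3 gave 0 calls among 37 members and 0 among all 15438 genes tested (0% called, limma), with an unadjusted p below 0.05 in 17 members and in 28.9% of all genes. Almost none of these peaks reached a q-value of 0.05, at most 0.00990% in any library, so the values describe weak and broad enrichment. Coverage by the mark differed widely between members. Scn10a and Scn11a were covered to 29.9 and 29.4% and to 31.9 and 26.2% in the libraries labelled excitatory, and to 30.5 and 27.8% and to 24.0 and 26.8% in those labelled inhibitory. Scn4b, a sodium channel beta subunit gene, had 29.8 and 33.1% in the libraries labelled excitatory and 40.9 and 34.4% in those labelled inhibitory. Cacng5 had 22.7 and 32.1% in the libraries labelled excitatory and 32.6 and 28.3% in those labelled inhibitory, overlapping groups at a gene whose H3K4me3 was called. At the other extreme Scn2a and Cacnb4 were listed at 0 in both libraries labelled excitatory and stayed below 1% in those labelled inhibitory.

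The largest H3K27me3 differences were negative. Cacng3 had 2.94 and 8.03% in the libraries labelled excitatory, against 27 and 22.7% in those labelled inhibitory (-16.1 ± 3.02 points, limma adjusted p = 0.0612). Cacna2d3, an alpha2delta subunit gene and the longest member at 818 kb, had 4.45 and 5.35% in the libraries labelled excitatory, against 23.5 and 24.9% in those labelled inhibitory (-15.7 ± 2.43 points, limma adjusted p = 0.0555). Within Cacna2d3, 2 merged regions were found in both libraries labelled excitatory and in neither labelled inhibitory, and 61 the other way round, where the shares of all merged regions in the genome were 3.97 and 6.66%. A further 18 regions in Cacna2d3 were found in all 4 libraries and 238 in other combinations of libraries. Scn3a had 0.245 and 1.47% in the libraries labelled excitatory, against 16.1 and 12.3% in those labelled inhibitory (-10.4 ± 2.05 points, limma adjusted p = 0.0645). Scn3b had 0 and 1.82% in the libraries labelled excitatory, against 10.9 and 10.3% in those labelled inhibitory (-7.14 ± 1.73 points, limma adjusted p = 0.0839). Cacnb1, a beta subunit gene of muscle and brain whose windows also reach Rpl19, was listed at 0 in both libraries labelled excitatory and had 10.9 and 7.51% in those labelled inhibitory (-7.11 ± 1.11 points, limma adjusted p = 0.0555). In each of these genes the groups did not overlap, and none passed the test. Both libraries labelled excitatory lay below both labelled inhibitory in 23 of 37 members, against 48.7% of all genes tested.

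The normalized H3K27me3 difference was negative in 20 of 37 members and positive in 17, against 50.7% positive over all genes tested. Among the positive members, Cacna1a, Cacna1e and Scn2b came first in order of p. Cacna1a had 2.53 and 3.54% in the libraries labelled excitatory, against 0.0950 and 0% in those labelled inhibitory (4.43 ± 0.69 points, limma adjusted p = 0.0555). Its longest region, 3257 bases at chr8:84338187-84341443, lay at the gene's end and was found in both libraries labelled excitatory and in neither labelled inhibitory. Scn2b had 3.07 and 5.95% in the libraries labelled excitatory, against 0 and 0.266% in those labelled inhibitory (5.80 ± 1.14 points, limma adjusted p = 0.0644). The longest region in the Scn2b window, at chr9:45134389-45138519, lay beyond the gene in the flank shared with Scn4b and had peaks in all 4 libraries. No H3K27me3 peak was found within 2 kb of the Scn2b start in any library. Cacna1e had 3.24 and 3.61% in the libraries labelled excitatory and 2.21 and 1.17% in those labelled inhibitory (4.14 ± 0.79 points, limma adjusted p = 0.0627). These levels were low, and the normalized differences of the 3 genes exceed the differences of the levels. Total H3K27me3 coverage before normalization was 182 to 216 Mb in the libraries labelled excitatory, against 243 to 277 Mb in those labelled inhibitory. On the log2(percent + 1) scale 4 members passed the test, Cacna1a and Scn2b higher and Cacna2d3 and Cacnb1 lower, with limma adjusted p between 0.0438 and 0.0488, and 6.98% of all genes tested were called on that scale.

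Overlap of H3K4me3 and H3K27me3 peaks at a gene end in both libraries of a label was found in libraries of both labels for 7 members, or 18.9% of them, against 8.39% of all genes. These were Cacnb2, Cacng4, Cacng6, Scn1a, Scn4b, Scn8a and Scn9a. In Scn8a the overlap lay at the end away from the start. There H3K27me3 covered 28.6 and 20.7% in the libraries labelled excitatory and 23.7 and 34.7% in those labelled inhibitory. At the start end of Scn8a it was 0 in all 4 libraries. Overlap was found with the excitatory label alone for 5 members, Cacna1a, Cacna1e, Cacna2d1, Cacna2d2 and Cacng5. With the inhibitory label alone it was found for 6, Cacna1s, Cacng1, Cacng3, Cacng8, Scn3b and Scn11a. The corresponding shares were 13.5% of members and 3.75% of all genes for the excitatory label, and 16.2% and 5.2% for the inhibitory label. In Cacng8, H3K27me3 in the libraries labelled inhibitory was 16.5 and 0% at the start end and 12.7 and 13.4% at the other end. A label alone means only that the overlap was not found in both libraries of the other label. At the Cacng3 start, for example, the second library labelled excitatory also had overlapping peaks, with H3K27me3 over 56.7% of the 2 kb on either side. Each library is a pool of nuclei, so such overlap does not show both marks in the same nucleus.

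Across members, the normalized differences of H3K4me1 and H3K27ac ran together and opposite to H3K27me3, and those of H3K4me3 did so less closely. Pearson's r between the H3K4me1 and H3K27ac differences was 0.811 over 36 members and 0.472 over all 16554 genes with both values. Between H3K4me1 and H3K27me3 it was -0.601 over 37 members and -0.312 over 13515 genes. For H3K4me3, Pearson's r over members was 0.457 with H3K4me1, 0.427 with H3K27ac and -0.433 with H3K27me3. Over all genes with both values these were 0.329, 0.329 and -0.260. Spearman's rank correlations of the same pairs were 0.324, 0.279 and -0.291 over members, and 0.289, 0.279 and -0.234 over all genes. These are descriptions across genes that share the same libraries and overlapping windows, and genes are not independent replicates.

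EGR1 gave 0 calls among 34 members and 0 among all 14310 genes tested (0% called, limma). An unadjusted p below 0.05 was found in 12 members and in 14.7% of all genes. Scn10a had no EGR1 peak at its ends in any library, and Cacna1c and Cacng1 had a peak in 1 library only. Cacng3 had the broadest EGR1 coverage of the gamma class, 27.8 and 25.9% in the libraries labelled excitatory, against 11.8 and 12.7% in those labelled inhibitory (10.8 ± 2.07 points, limma adjusted p = 0.117). Scn8a had 21.6 and 24.0% in the libraries labelled excitatory, against 8.11 and 10.5% in those labelled inhibitory (10.4 ± 1.94 points, limma adjusted p = 0.117). Cacna1s, whose windows also reach Ascl5, had 18.1 and 21.0% in the libraries labelled excitatory, against 9.37 and 3.12% in those labelled inhibitory (10.4 ± 2.98 points, limma adjusted p = 0.201). At the end away from its start, Cacna1s had 24.8 and 22.3% in the libraries labelled excitatory and 9.22 and 0% in those labelled inhibitory. Around the start its difference was 4.09 ± 3.99 points (limma adjusted p = 0.731). Both libraries labelled excitatory lay above both labelled inhibitory in all 3 genes, and none passed the test. Over all members tested this order was seen in 15, or 44.1%, which was close to the 47.4% of all genes tested.

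EGR1 coverage in the reverse order was seen in 4 members tested, against 6.04% of all genes: Scn2b, Cacna2d2, Cacnb3 and Scn9a. Scn2b had 0 and 3.09% in the libraries labelled excitatory, against 6.95 and 8.52% in those labelled inhibitory (-8.04 ± 1.41 points, limma adjusted p = 0.114). Cacna2d2, an alpha2delta subunit gene, had 3.26 and 4.86% in the libraries labelled excitatory, against 8.46 and 10.1% in those labelled inhibitory (-8.07 ± 1.51 points, limma adjusted p = 0.117). Neither passed the test. The RefSeq start of Scn2b itself lay under an EGR1 peak in both libraries labelled inhibitory and in neither labelled excitatory, as did 0.546% of all starts. The reverse held for 1 start of Cacnb3 and for 1.53% of all starts. The order of Cacnb3 also turned with the window. At its ends it had 2.80 and 3.80% in the libraries labelled excitatory and 4.64 and 5.70% in those labelled inhibitory (-4.73 ± 1.31 points, limma adjusted p = 0.189). Around its starts it had 24.0 and 20.3% in the libraries labelled excitatory and 4.84 and 14.4% in those labelled inhibitory (9.02 ± 3.44 points, limma adjusted p = 0.367), and over the gene body the difference was 3.46 points.

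The EGR1 consensus was searched as GCGNGGGCG on both strands in the 300 bases around RefSeq starts. It was found at 6 of 40 member starts, or 15%, and at 7.60% of all 21045 starts. The member starts had a median GC content of 59.5% and all starts 56.7%. The 6 belonged to Cacna1b, Cacna1c, Cacna1d, Cacna2d1, Cacna2d2 and Scn8a. Those of Scn8a and Cacna2d2 are shown because their EGR1 coverage stood in opposite order between the labels, and that of Cacna1b because it held 2 matches. Capitals mark the matches, and these are matches of letters, not measured binding sites.
Scn8a, chr15:100870395-100870694, plus strand: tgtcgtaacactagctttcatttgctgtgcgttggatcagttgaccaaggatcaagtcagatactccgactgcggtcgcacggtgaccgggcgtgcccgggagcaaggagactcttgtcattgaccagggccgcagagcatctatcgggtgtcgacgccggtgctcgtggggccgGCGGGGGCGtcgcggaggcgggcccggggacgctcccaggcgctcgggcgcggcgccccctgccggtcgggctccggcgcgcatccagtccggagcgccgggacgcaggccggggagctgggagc
Cacna2d2, chr9:107399630-107399929, plus strand: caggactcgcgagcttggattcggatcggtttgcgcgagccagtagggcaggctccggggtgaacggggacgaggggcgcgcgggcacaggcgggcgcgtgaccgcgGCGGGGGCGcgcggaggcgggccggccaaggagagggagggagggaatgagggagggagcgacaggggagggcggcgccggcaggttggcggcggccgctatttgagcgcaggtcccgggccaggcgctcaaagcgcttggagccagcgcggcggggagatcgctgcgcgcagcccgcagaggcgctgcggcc
Cacna1b, chr2:24763103-24763402, minus strand: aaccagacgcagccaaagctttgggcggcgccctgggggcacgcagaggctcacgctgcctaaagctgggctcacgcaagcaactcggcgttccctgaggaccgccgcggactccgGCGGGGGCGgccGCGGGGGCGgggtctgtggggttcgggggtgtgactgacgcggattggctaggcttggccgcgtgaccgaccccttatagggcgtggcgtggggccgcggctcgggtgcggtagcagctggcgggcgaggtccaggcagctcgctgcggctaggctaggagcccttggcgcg
At these 3 starts EGR1 peaks were present in every library. In Scn8a they covered 177 and 300 of the 300 bases in the libraries labelled excitatory, and 300 and 300 bases in those labelled inhibitory. In Cacna2d2 they covered 98 and 261 bases in the libraries labelled excitatory, and 300 and 300 bases in those labelled inhibitory. In Cacna1b, the N-type pore, they covered 173 and 300 bases in the libraries labelled excitatory, and 300 and 300 bases in those labelled inhibitory. At the other 3 starts with a match, EGR1 peaks covered 0 of the 300 bases in all 4 libraries for Cacna1c and Cacna1d. For Cacna2d1 they covered 300 and 166 bases in the libraries labelled excitatory, and 118 and 0 bases in those labelled inhibitory. No match was found in the Cacng5 and Scn11a windows printed above.

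EGR1 peaks were also counted over the gene bodies with 5 kb on either side. Of 803 merged regions in these windows, 132, or 16.4%, were found in all 4 libraries, against 18.2% of regions genome-wide. A further 135, or 16.8%, were found in both libraries labelled excitatory alone, against 21.0% genome-wide, and 23, or 2.86%, in both labelled inhibitory alone, against 2.41%. Among those in all 4 libraries, the highest authors' fold enrichment was at chr8:84357643-84358263 in Cacna1a, with 10.9 and 10.9 in the libraries labelled excitatory and 6.85 and 9.76 in those labelled inhibitory. A region at chr14:30479215-30480117 in Cacna1d had 8.88 and 9.87 in the libraries labelled excitatory and 8.99 and 8.61 in those labelled inhibitory. An H3K4me3 region found in all 4 libraries overlapped it. Regions found in the libraries labelled excitatory alone included chrX:7616549-7617006 in Cacna1f, a retinal L-type pore, with 8.82 and 7.24, and chr5:16297187-16297939 in Cacna2d1, the gabapentin receptor subunit, with 8.73 and 7.90. The number of EGR1 peaks differed between the labels, 93858 and 98534 in the libraries labelled excitatory and 49899 and 62412 in those labelled inhibitory, and its part in these shares was not tested.

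A list of 25 genes for channel partners, such as presynaptic scaffolds and channel modulators, was examined beside the members. For H3K4me1 and for H3K4me3 a single partner was called in each, of 25 and 24 tested, and it was the same gene, Rimbp2, which links presynaptic calcium channels to vesicles. These shares were close to the 4.06 and 3.02% of all genes called. Rimbp2 had 19.2 and 26.3% under H3K4me1 in the libraries labelled excitatory, against 5.18 and 2.93% in those labelled inhibitory (16.0 ± 2.46 points, limma adjusted p = 0.0419). For H3K4me3 it had 24.6 and 24.0% in the libraries labelled excitatory, against 6.74 and 0% in those labelled inhibitory (20.1 ± 2.88 points, limma adjusted p = 0.0233). The median difference was 0.29 points over the partners and 4.01 points over the channel genes for H3K4me1, and 0.26 and 0.85 points for H3K4me3, and 0 partners were called for the other antibodies.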

How the data were processed

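CUT&RUN was run with 5 antibodies on sorted nuclei of mouse whole brain, and titles gave the group and replicate of every library. Per the submitters' processing notes reads were handled with MACS2 2.2.5, Bowtie2 2.3.5, SAMtools 1.12, Picard 2.25.0, cutadapt 1.18 and Trim Galore 0.5.0, on build mm10. Settings, control library and sorting gate were not given in the sources used here. For each library the authors deposited a list of peaks called on it alone, every peak with its fold enrichment (a ratio), its score, and its p-value and q-value as -log10. Fold and score entered no test. The lists hold no read counts, so depth is unknown and no counting interval can be given. Peak names in the EGR1 lists use other replicate numbers than the labels, which were followed.

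Only chromosomes 1 to 19 and X were analysed. Gene positions came from RefSeq on GRCm38.p6, whose table gives no strand, so both gene ends were used, and starts with strand were known for 29 of the 37 genes from RefSeq promoter sequences. Percent coverage was computed in Python 3.11.15 with pandas 2.3.3 for genes with peaks in at least 2 of 4 libraries, then quantile-normalized. The fit used R 4.3.3 and limma 3.58.1 (lmFit, eBayes with trend, two-sided). With 2 libraries against 2, an exact permutation test of a single value cannot go below p = 0.333 and was not used. Named genes were, per antibody, the members called, filled up to 3 in each direction in order of p, and the member of highest mean coverage in each subunit class; others were named after their values were seen. The members, marker lists and partner list were chosen with earlier results of these data known.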

Additional observations from a re-analysis of the deposited data

How the results depend on the processing

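Counts of called members changed with the settings for every antibody but EGR1, for which 0 members were called under each alternative. For H3K4me1 the 2 calls became 0 without the filter on uncovered genes, with only peaks whose -log10 p reached 3, and with equal numbers of the strongest peaks, and for H3K4me3 the 4 calls became 0 without quantile normalization, without the filter and with the gene body as window. With the stricter H3K4me1 peaks only 18 members were tested, and Scn3a and Cacng3 were not among them. Leaving out 1 library at a time gave 0 to 2 calls for H3K4me1, 0 to 6 for H3K4me3 and 0 to 1 for H3K27ac. On the log2(percent + 1) scale, H3K27me3 gave 4 calls. For H3K27me3, 0 members passed the filter among peaks whose -log10 p reached 3. The cause of these changes was not tested.

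Replicate numbers are not labelled as a shared animal or batch, and deviations of same-numbered libraries correlated by only -0.0166 to 0.0926, so they were not treated as pairs. With the replicate number as a block, calls were 0 for H3K4me1, 6 of 34 members for H3K4me3, 3 of 36 for H3K27ac (Scn3a, Cacng3 and Cacna1h), 0 for H3K27me3 and 0 for EGR1. Over all genes the block fit called 1221 of 15685 for H3K4me3 and 1329 of 16654 for H3K27ac. The members' share for H3K27ac was thus close to the background.

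Over all genes, the 732 H3K4me1 calls ranged from 0 to 1211 and the 474 H3K4me3 calls from 0 to 1221, while the H3K27ac count reached 1329 with the block, the H3K27me3 count 1078 on the log2 scale and the EGR1 count 432 over gene bodies. Of 336 differences of named members under an alternative, 274 kept their direction and side of the threshold, 39 lost the call, 13 gained it and 10 changed sign. The sign changes were Scn4a and Cacna1a for H3K4me1 with stricter peaks (1.60 and 1.65 points) and at gene ends (12.2 and 3.84), Cacna2d4 for H3K4me3 over the gene body (1.12), Cacna1g and Scn4a for H3K27ac at gene ends (5.60 and 6.81), Scn4a (-0.46) and Cacnb3 (3.46) for EGR1 over the gene body, and Cacnb3 at the gene start (9.02).

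The lists hold weak peaks and no read counts, so a window without a peak shows only that none was called. Coverage of neighbouring genes is shared where windows overlap, as for Cacng6 with Cacng8 and Scn2b with Scn4b.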
